A study of Drosophila melanogaster with 24 samples.

Results

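The rows described here are the start sites of capped RNA that the authors' annotation places in a 5' UTR, the untranslated leader between a transcript's annotated start and its start codon. They were chosen as the rows of the merged site table whose deposited annotation reads 5' UTR, and they number 862 of 45839 rows. The members carry 656 gene names, of which 501 have 1 member, and no gene has more than 7. The deposited annotation ignores strand and gives the rows close to an annotated start the class promoter-TSS, so few of these sites lie close to the start of their transcript. A promoter-TSS row with the same gene name existed for 802 members, from 604 genes, and the other 60 members had none.

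RNA polymerase II starts transcription at a core promoter, where short elements such as the initiator, the TATA box and the downstream core promoter element (DPE) position it. Transcription of a gene can start at more than one place, and a start inside the annotated leader gives a shorter leader with fewer upstream ATG triplets, which are known to affect translation of the main reading frame. Starts are also found on the strand opposite to a gene, close downstream of its promoter. Capped small RNA sequencing (csRNA-seq) reads the 5' ends of short capped RNAs and so records where initiation took place, on either strand, whatever becomes of the transcript.

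Dechorionated Drosophila melanogaster embryos of the strains F3 and M6 (genotype tinmDPE) and Cas9 (genotype tinWT) were collected in windows of 0-2, 2-4, 4-6 and 6-8 h at 25 °C, and short RNAs were cap-selected from their total RNA. The tinmDPE genotype carries a mutated DPE at the tin gene, a homeobox gene needed for heart and dorsal mesoderm. There was 1 csRNA library per strain and window, so each window held 3 libraries, of which 2 were tinmDPE and 1 was tinWT, and the 12 input libraries were not analysed here. The labels do not say whether the libraries of a strain came from separate crosses or cages, so the p-values measure only the spread between these libraries. No member carries the gene name tin.

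The libraries held 2632187 to 10553406 tags. Depth moved with the window, with 2632187 to 2908161 tags at 0-2 h and 6705989 to 10553406 at 6-8 h, and its part in the window results was not tested. Rows that the authors called in a single library had their highest mean level in that library's own column for 12 of 12 libraries. Stage markers were read at their strongest promoter-TSS row: 5 of 5 maternal genes were highest at 0-2 h, 4 of 4 cellularization genes at 2-4 h, and 3 of 4 mesoderm genes at 6-8 h. Among the mesoderm genes, Mef2 averaged 8.85 at 6-8 h and 8.76 at 0-2 h, so it hardly marks a window. Of the later tissue markers, elav and repo were highest at 6-8 h, whereas the muscle genes Mhc and up were highest at 0-2 h, which goes against their usual late expression. In whole embryos, fewer cells that use a site and less RNA per cell cannot be told apart.

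Set against the annotated transcripts, the members fell into 2 kinds. On the strand of the transcript whose 5' UTR held them lay 345 sites (40% of members), called sense sites here, and on the opposite strand lay 510 (59.2%), called antisense sites; for 7 the transcript could not be matched in RefSeq. The first exon held 71% of sense sites and 72.7% of antisense sites. The median distance from the transcript's annotated start was 435 genomic bp for sense and 454 bp for antisense sites. A RefSeq start on the site's own strand lay within 50 bp of 5 members and within 200 bp of 77, all of them sense. For 38 members the host transcript belongs to a gene other than the deposited gene name. One is the site deposited under lncRNA:CR44026, which lies in exon 2 of baz, and another is the site deposited under CG33640, which lies in exon 4 of B4.

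**Figure D1:**
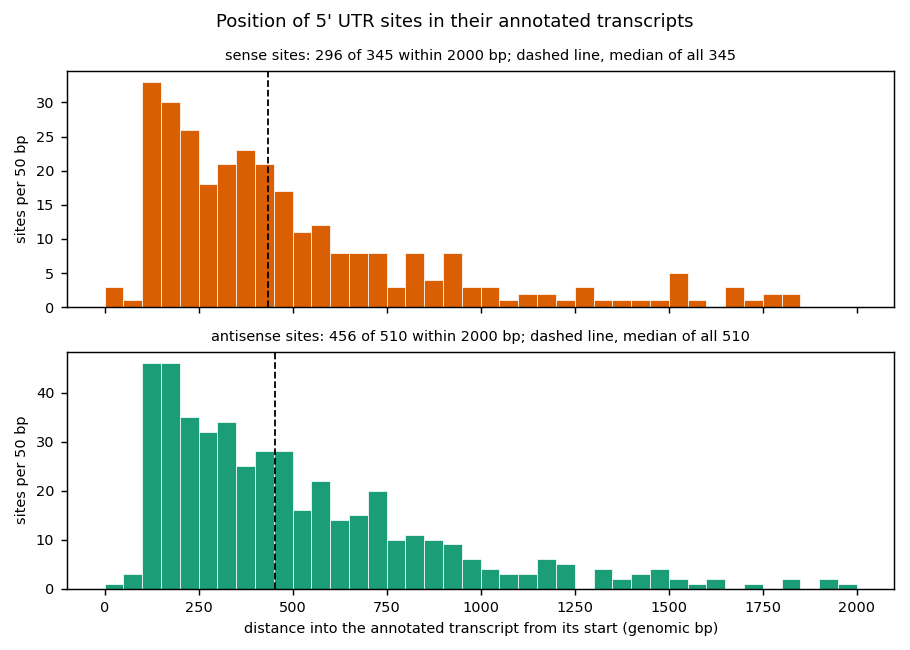
Number of 5' UTR sites per 50 bp (vertical axis) by genomic distance from the annotated start of the host transcript (horizontal axis, bp), for 345 sense sites (top) and 510 antisense sites (bottom), with the median as a dashed line. Of these, 296 sense and 456 antisense sites lie within 2000 bp and are drawn; both kinds are most frequent near the start, in the bins just past the promoter class, and thin out from there.

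For 335 sense sites the position could be placed in the spliced leader. The annotated leader of these transcripts had a median of 678 bases, of which 366 lay before the site and 232 after it. At least 1 ATG lay upstream of the site in 282 of the 335 (84.2%), and the median was 3 ATG triplets before the site out of 5 in the whole leader. The positions of antisense sites, which give no such leader, held nearly the same share, 408 of 499 (81.8%), with the same medians. In 94 of the 335 sense sites every ATG of the leader lay before the site. RNA from these sense sites would hold none ahead of the start codon. The strong Aldh site, in the gene for mitochondrial aldehyde dehydrogenase, is one of these: 3 of 3 ATG triplets lie in the 271 leader bases before it, and 108 bases remain. These counts follow the transcript of the deposited annotation. Another RefSeq start on the strand of the Aldh site lies closer to it, at 101 bp.

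The genome around the sites was read to see which carry known core promoter letters. The initiator was searched as TCA, then G or T, then T, then C or T, on the site's own strand, with its A within 5 bp of the called position. The sites printed next were picked from those whose level or change is described further on, so they give no share of members. Each run is 30 bases of the dm6 genome, 5' to 3', with the called base at position 16. Capitals mark the initiator where one was found and otherwise the called base alone. The first 6 are sense sites with an initiator.
Aldh: ctacgaaatcgttTCAGTTgtccgtcgacc
CG33640, in B4: cggacaagtctgcTCAGTTggtcgctgaaa
hng3: caccgcattttgcTCAGTTcgccaataaag
crol: tctcattcagtttTCAGTTtgctttgctct
Pfrx: tttagtttcacttTCATTCgtcttcgatcg
CG1299: tccaaaaaaacacTCAGTCtgataacgcga
The next 5 are sense sites in which those letters were not found.
lncRNA:CR44026, in baz: ttgcggccgcacttcActtcgctttagaaa
Eip75B: gttgattttcctttcAttgactaactgcca
lbe: aatctagtttcgaacAgttgactgcgaagc
dac: tagctgccatctctcAatctctgagtgaca
Pdp1: cacgttaaaacactcAcacgtcgagcgtcg
The last 3 are antisense sites, of which the spen site holds an initiator.
spen: gtgctacgcgattTCAGTCgatttgtagaa
Lk6: cttggtttggtggttGagtcgtcgttggtg
GlyS: agtcaaataaaggtcAgtggcggcgtgctg

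In 13 of these 14 picked sites the called base is an A, and in the Lk6 site it is a G. Among sites described further on but not printed, it is C at N, CG15020, stai and CG14621. It is G at CG31635 and ref(2)P, T at Gapdh2, and A at the others that were read. The dinucleotide CA with its A at the called base was found at 54.2% of sense and 34.5% of antisense sites, against 51.9% of promoter-TSS rows and 40.2% of all rows. An initiator was found at 48 sense sites (13.9%) and 24 antisense sites (4.71%), against 14.5% of promoter-TSS rows and 9.07% of all rows. A DPE, counted only with an initiator and from position 28 after its A (A, G or T, then C or G, A or T, C or T, A, C or G, and C or T), was found at 3.48% of sense and 0.392% of antisense sites, against 3.31% of promoter-TSS rows. Aldh, CG33640 and hng3 are among the 12 sense sites with both elements. A TATA match (TATA, then A or T, then A, starting 33 to 28 bp upstream) was found at 2.61% of sense and 2.55% of antisense sites, against 4.86% of promoter-TSS rows. Among sites called in 6 or more libraries, the initiator share was 24.6% of 118 sense and 5.88% of 102 antisense sites, against 17.6% of promoter-TSS rows called as often. These shares are descriptions of letters in a window, and the differences between classes were not tested.

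Levels are the authors' rlog values, regularized tag counts on a log2 scale. The median of the members' mean over the 12 libraries was 1.42, with 2.33 for sense and 0.99 for antisense sites, against 3.40 for promoter-TSS rows and 0.72 for all rows. In every library the sense median lay above the antisense median, at 2.08 to 2.60 against 0.69 to 1.23. Most members were called in few libraries: 351 were called in 1 library, 511 in 2 or more, 220 (25.5%) in 6 or more and 14 in all 12. Of promoter-TSS rows, 53.8% were called in 6 or more. The 14 sites called in every library were 9 sense sites (lbe, crol, dac, Pfrx, CG14621, Atf3, PhKgamma, ref(2)P and Syp) and 5 antisense sites (spen, CG12581, Mtk, Lk6 and bun). Syp, Mtk and bun were named after their values were seen.

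**Figure D2:**
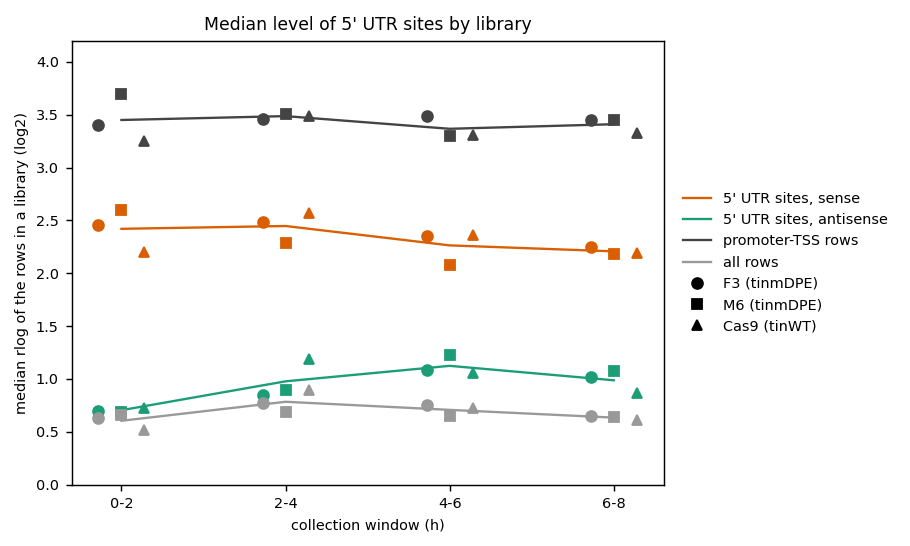
Median rlog (vertical axis, log2) of the sense and antisense 5' UTR sites, the promoter-TSS rows and all rows in each library, by window (horizontal axis, h); symbols are libraries and lines join the means of the 3 libraries. In each of the 12 libraries sense sites lie between antisense sites and promoter-TSS rows.

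The strongest member was the sense site in exon 2 of baz, the gene of the polarity protein Bazooka, deposited under lncRNA:CR44026 (chrX:17178806-17178956, plus strand, dm6). In F3, M6 and Cas9 it stood at 10.69, 10.68 and 10.77 at 0-2 h, then 11.45, 11.18 and 11.75 at 2-4 h, then 11.62, 12.06 and 12.76 at 4-6 h, then 12.26, 12.01 and 12.60 at 6-8 h. All 6-8 h libraries lay above all 0-2 h libraries, a rise of 1.58 ± 0.23 (SE; adjusted p = 0.000157, limma). An antisense site in the 5' UTR of baz itself (chrX:17160534-17160695, minus strand) was weaker, at 5.04 ± 0.30 at 0-2 h and 6.72 ± 0.41 at 6-8 h (SD, n = 3), and also rose (change 1.68 ± 0.33, SE; adjusted p = 0.00201).

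No promoter-TSS row carries the name lncRNA:CR44026, whereas the strongest one named baz averaged 10.65 over the 12 libraries. After the lncRNA:CR44026 site, the 4 highest sites whose gene name has no promoter-TSS row were in Aldh, lbe, dac and Pgm2a. The lbe site, in the gene of the ladybird early homeobox protein of heart and muscle founders (chr3R:21446270-21446420, minus strand), was the highest of the members called in all 12 libraries after spen, and no promoter-TSS row carries this gene name. It stood at 7.81, 8.39 and 7.71 in F3, M6 and Cas9 at 0-2 h, then 8.92, 8.64 and 9.38 at 2-4 h, then 9.16, 9.51 and 9.61 at 4-6 h, then 9.43, 9.23 and 9.65 at 6-8 h. Each later library exceeded each 0-2 h library, and the 6-8 h level was higher by 1.46 ± 0.28 (SE; adjusted p = 0.00138). The dac site, in the dachshund gene of eye and leg development (chr2L:16485595-16485745, minus strand), had no promoter-TSS row either and averaged 8.14 ± 0.22 at 0-2 h, then 9.25 ± 0.37 at 2-4 h, then 8.56 ± 0.32 at 4-6 h, then 8.79 ± 0.03 at 6-8 h (SD, n = 3). It rose by 1.11 ± 0.26 between the first 2 windows (SE; adjusted p = 0.0212). Pgm2a, named for a phosphoglucomutase and also without a promoter-TSS row, averaged 8.18 ± 0.12 at 0-2 h and 7.51 ± 0.19 at 6-8 h, and its change did not pass the test (adjusted p = 0.0836).

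The spen site is the strongest antisense member (chr2L:161375-161525, minus strand). The gene encodes Split ends, a nuclear RNA-binding protein of several signalling pathways. In F3, M6 and Cas9 the antisense site stood at 8.85, 9.74 and 8.96 at 0-2 h, then 8.72, 8.72 and 9.33 at 2-4 h, then 8.76, 9.65 and 10.61 at 4-6 h, then 9.73, 10.05 and 10.92 at 6-8 h. F3 and M6 at 6-8 h lay close to the M6 value of 0-2 h, and Cas9 was highest in the last 2 windows. The rise over the course was 1.05 ± 0.32 (SE; adjusted p = 0.0339); it was 0.59 without Cas9 (adjusted p = 0.246), and 7 of 9 alternatives lost the call, among them the fits without the strain block (adjusted p = 0.099) and without the tinWT 2-4 h library (0.0729). The promoter-TSS row of spen rose by 2.32 ± 0.30 (SE; adjusted p = 7.57e-05).

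Against the promoter-TSS row of the same gene, the strongest one where there were several, most 5' UTR sites were lower. The median difference of site minus promoter row was -5.36 over the 802 pairs, with -3.59 for sense and -6.54 for antisense pairs. The site lay below its promoter row in all 12 libraries in 686 pairs, above it in all 12 in 29 pairs (3.62%) and on both sides in 87. In single libraries 60 to 73 pairs had the higher value at the site. Over all rows with a promoter-TSS row of their gene, 3.16% lay above it in all 12 libraries. Those rows include weaker promoter-TSS rows, which cannot lie above the strongest one in all 12. The shares are therefore not like for like, and whether they differ was not tested. The 29 comprised 24 sense pairs (7.87% of 305) and 5 antisense pairs (1.02% of 490). Across pairs, the mean level of a site and that of its promoter row had Pearson r = 0.09, a description over 802 pairs that share libraries and in part promoter rows. Within each orientation r was higher, at 0.18 for sense and 0.20 for antisense pairs.

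The 5 pairs with the largest excess were all sense and are named with their values. CG33640, in B4 (chr2L:13513346-13513496, minus strand), averaged 10.58 over the 12 libraries against 3.24 at its promoter row, which lies 14491 bp away. That row was paired by the deposited name CG33640, so the site was not compared with a promoter row of B4. CG1299 averaged 4.73 against -1.72, where the promoter row is close to the lowest values of the table and on the opposite strand. Pdp1, the gene of a PAR-domain bZIP factor of the clock and muscle, averaged 8.14 against 1.92, and CG15725 averaged 6.30 against 0.08, again on opposite strands. Eip75B, an ecdysone-induced nuclear receptor gene (chr3L:17999434-17999584, minus strand), averaged 10.60 against 4.57, with the rows 65215 bp apart. The paired promoter row thus lay far from the site in 3 of the 5 pairs, at 12494 bp for Pdp1. It lay within 274 bp on the other strand for CG1299 and CG15725.

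**Figure D3:**
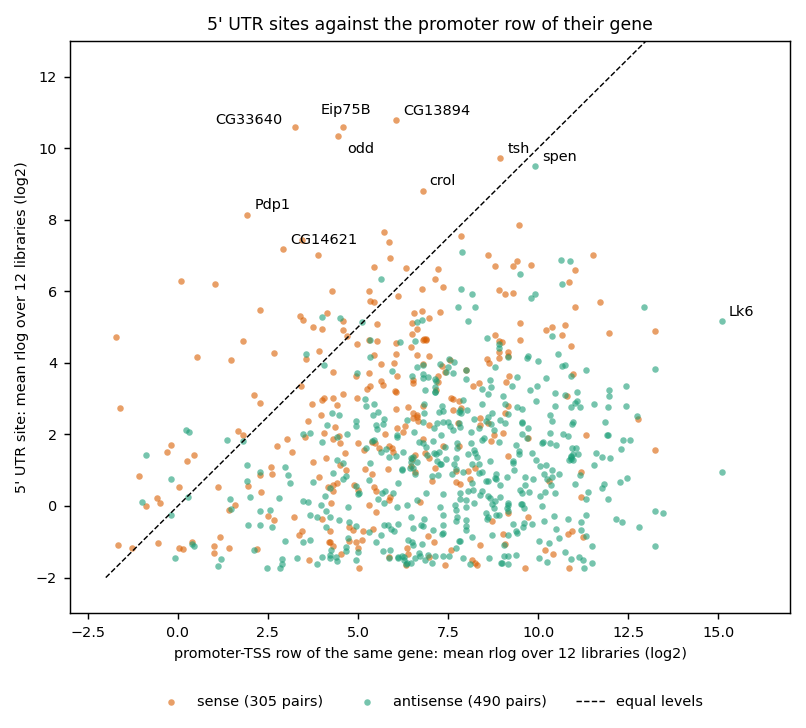
Mean rlog over 12 libraries (log2) of each 5' UTR site (vertical axis) against that of the strongest promoter-TSS row with its deposited gene name (horizontal axis), for 305 sense and 490 antisense pairs, with equal levels as a dashed line. Most points lie below the line, and the strong sites of CG33640, Eip75B, odd, CG13894, Pdp1, CG14621, crol and tsh lie above it; CG13894 and tsh were labelled after their values were seen.

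The odd gene, a pair-rule gene of the segmented embryo, was high at its 5' UTR site (chr2L:3606466-3606616, minus strand) and low at its promoter row, which is on the opposite strand. In F3, M6 and Cas9 the site stood at 9.20, 8.87 and 9.60 at 0-2 h, then 10.24, 10.35 and 10.26 at 2-4 h, then 10.30, 10.60 and 11.13 at 4-6 h, then 11.11, 10.60 and 11.66 at 6-8 h, and the promoter row at 4.19, 3.12 and 4.10 at 0-2 h, then 4.50, 4.31 and 5.79 at 2-4 h, then 4.48, 4.40 and 4.91 at 4-6 h, then 4.77, 4.42 and 4.44 at 6-8 h. The site exceeded the promoter row in every library. It rose by 1.90 ± 0.25 over the course (SE; adjusted p = 7.99e-05). Crol, a zinc-finger gene of the ecdysone response, averaged 8.94 ± 0.55 at its site against 6.77 ± 0.36 at its promoter row at 0-2 h, and 9.41 ± 0.58 against 7.49 ± 0.56 at 6-8 h (SD, n = 3). Its site was higher in all 12 libraries, and its change over the course did not pass the test (adjusted p = 0.371). CG14621 averaged 7.17 at its site, 5 bp from the RefSeq start, against 2.91 at a promoter row 1083 bp away.

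Over the 4 windows, 191 of 862 members (22.2%) changed by limma's F test, against 19.9% of all rows. The share was 102 of 345 sense sites (29.6%) and 89 of 510 antisense sites (17.5%). Between 6-8 h and 0-2 h, 186 members were called (17.4% of all rows were), 129 higher and 57 lower at 6-8 h. Of all rows 9.88% were called higher and 7.5% lower. Sense sites split into 55 higher and 46 lower, and antisense sites into 74 higher and 11 lower. The median change was -0.09 for sense and 0.30 for antisense sites, against -0.08 for all rows. Whether sense and antisense sites differ in their changes was not tested, and antisense sites are the weaker ones, where rlog shrinks values most. Leaving out F3, M6 or Cas9, which left 2 libraries per window, gave 0, 26 and 40 members in that order by the F test, and 0, 67 and 100 between 6-8 h and 0-2 h.

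Which step between neighbouring windows held the most calls depended on 1 library. From 0-2 h to 2-4 h, 65 members were called (6.67% of all rows were), of which 49 rose (4.22% of all rows did) and 16 fell (2.44%). Sense sites gave 21 rises and 14 falls, and antisense sites 28 rises and 2 falls. With each library centred on its median 25 rose and 21 fell; the median change of all rows was then -0.09, beside 0.09 as deposited, and that of the members 0.03, beside 0.21. Without the tinWT 2-4 h library 20 were called in this step, 15 higher and 5 lower, against 23 in the second step and 1 in the last. From 2-4 h to 4-6 h, 17 were called (2.11% of all rows were), 4 higher (0.386% of all rows) and 13 lower (1.72%). From 4-6 h to 6-8 h, 5 were called (0.513% of all rows were), 1 higher (0.284% of all rows) and 4 lower (0.229%); centring gave 1 and 2.

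The 4 largest rises of the first step were at N, CG42748, CG10939 and mud. The N site is antisense in the leader of the Notch receptor gene (chrX:3135502-3135788, minus strand). In F3, M6 and Cas9 it stood at 2.87, 2.22 and 2.94 at 0-2 h, then 4.10, 4.54 and 5.32 at 2-4 h, then 4.75, 4.60 and 5.00 at 4-6 h, then 3.62, 3.97 and 3.51 at 6-8 h. The first 2 windows did not overlap, and the 6-8 h values lay between them. The rise of the first step was 1.98 ± 0.36 (SE; adjusted p = 0.00703), while the N promoter row averaged 10.39 ± 0.09 at 0-2 h and 10.28 ± 0.10 at 2-4 h. CG42748, a sense site, rose by 1.89 ± 0.33 (adjusted p = 0.0059). CG10939, also sense, rose by 1.84 ± 0.44 (adjusted p = 0.0234) and stood at 1.62, 1.12 and 1.32 in F3, M6 and Cas9 at 6-8 h, below each library of 2-4 h. Its rise was 1.16 without Cas9 (adjusted p = 0.322) and 1.50 without the tinWT 2-4 h library (0.169). An antisense site of mud, a gene of spindle orientation, rose by 1.67 ± 0.36 (adjusted p = 0.0133).

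The 4 largest falls of the first step were at Aldh, zyd, the site deposited under ssp2, which lies in Nxf3, and the site deposited under SkpF, which lies in CG43795. The Aldh site (chr2L:9387585-9387735, plus strand) was the strongest of all members at 0-2 h and had no promoter-TSS row. It stood at 12.71, 12.89 and 13.11 in F3, M6 and Cas9 at 0-2 h, then 10.42, 11.49 and 9.04 at 2-4 h, then 10.06, 8.73 and 8.81 at 4-6 h, then 9.36, 9.12 and 9.57 at 6-8 h. The 0-2 h libraries lay above all others, and the spread was widest at 2-4 h, where tinWT was lowest. The change of the first step was -2.59 ± 0.44 and that over the whole course -3.55 ± 0.44 (SE; adjusted p = 0.00525 and 4.75e-05). The Nxf3 site, in a gene of the nuclear export factor family, averaged 6.89 ± 0.27 at 0-2 h, then 5.04 ± 0.80 at 2-4 h, then 3.34 ± 0.19 at 4-6 h, then 2.91 ± 0.13 at 6-8 h (SD, n = 3), and fell in both of the first 2 steps (adjusted p = 0.0103 and 0.0246). Without the tinWT 2-4 h library the Aldh, zyd and SkpF falls of the first step did not pass, at -1.95, -1.86 and -1.76 (adjusted p = 0.0694, 0.136 and 0.239, limma). The SkpF change, -2.14 ± 0.55 as fitted, was -1.23 without Cas9 (adjusted p = 0.189) and did not pass without the strain block (0.22). The promoter-TSS row deposited under ssp2 averaged 6.54 ± 0.67 at 0-2 h and 5.85 ± 0.06 at 6-8 h.

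The 4 rises from 2-4 h to 4-6 h included 3 antisense sites, at Lk6, Ubr1 and GlyS, and the sense site deposited under CG45050, which lies in drn. Lk6 encodes a kinase that phosphorylates the cap-binding protein eIF4E, and its promoter row was the strongest paired with any named member. The antisense site of Lk6 (chr3R:11763886-11764036, plus strand) stood at 4.62, 4.60 and 4.04 in F3, M6 and Cas9 at 0-2 h, then 4.14, 4.14 and 4.98 at 2-4 h, then 5.88, 6.18 and 5.68 at 4-6 h, then 5.74, 6.34 and 5.68 at 6-8 h. The earlier 2 windows did not overlap the later 2, and the step was 1.49 ± 0.35 (SE; adjusted p = 0.0338). The Lk6 promoter row averaged 15.11 ± 0.64 at 2-4 h and 14.48 ± 0.33 at 4-6 h (SD, n = 3). Ubr1, a ubiquitin ligase of the N-degron pathway, had an antisense site (chrX:16967670-16967835, plus strand) at 1.31, 1.31 and 1.36 in F3, M6 and Cas9 at 0-2 h, then 1.69, 1.73 and 1.18 at 2-4 h, then 3.02, 3.35 and 2.47 at 4-6 h, then 4.86, 4.25 and 3.90 at 6-8 h. It rose by 3.01 ± 0.35 over the course (SE; adjusted p = 2.42e-05), and its promoter row changed by 0.03 ± 0.29 (adjusted p = 0.957). GlyS, glycogen synthase, rose by 1.17 ± 0.28 at its antisense site and the drn site by 1.15 ± 0.28 (adjusted p = 0.0423 and 0.0417). Without the strain block 1 rise of this step was called in place of 4, and Ubr1, GlyS and the drn site did not pass (adjusted p = 0.0562, 0.0786 and 0.0846, limma); Ubr1 did not pass without the tinWT 2-4 h library either (0.0739).

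The 4 largest falls of this step were at spri, l(3)mbt, NKCC and CG15020. The antisense site of spri, a gene of a Rab5 exchange factor, fell to 0.99, 0.58 and 0.89 in F3, M6 and Cas9 at 4-6 h, against 3.19, 3.21 and 3.67 at 2-4 h, a change of -2.54 ± 0.36 (SE; adjusted p = 0.00164). NKCC, a sodium, potassium and chloride cotransporter gene, changed by -2.28 ± 0.54 and CG15020 by -1.93 ± 0.40 (adjusted p = 0.0377 and 0.0198). In the last step the site of mfas, the midline fasciclin adhesion gene, rose to 3.70, 3.51 and 3.89 in F3, M6 and Cas9 at 6-8 h, against 1.68, 2.50 and 0.89 at 4-6 h (adjusted p = 0.0392). The falls of the last step were at lolal (-1.91 ± 0.33), CG31635 (-1.65 ± 0.31), nkd (-1.57 ± 0.34) and mino (-1.45 ± 0.30), with adjusted p from 0.0248 to 0.049. The calls of each single step were lost when any 1 strain was left out, where 2 libraries per window remained. Without the tinWT 2-4 h library l(3)mbt and NKCC did not pass in the second step (adjusted p = 0.0586 and 0.185), nor mfas, CG31635, nkd and mino in the last (0.0814, 0.0658, 0.07 and 0.0658); nkd and mino did not pass without the strain block either (0.0652 and 0.0628).

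**Figure D4:**
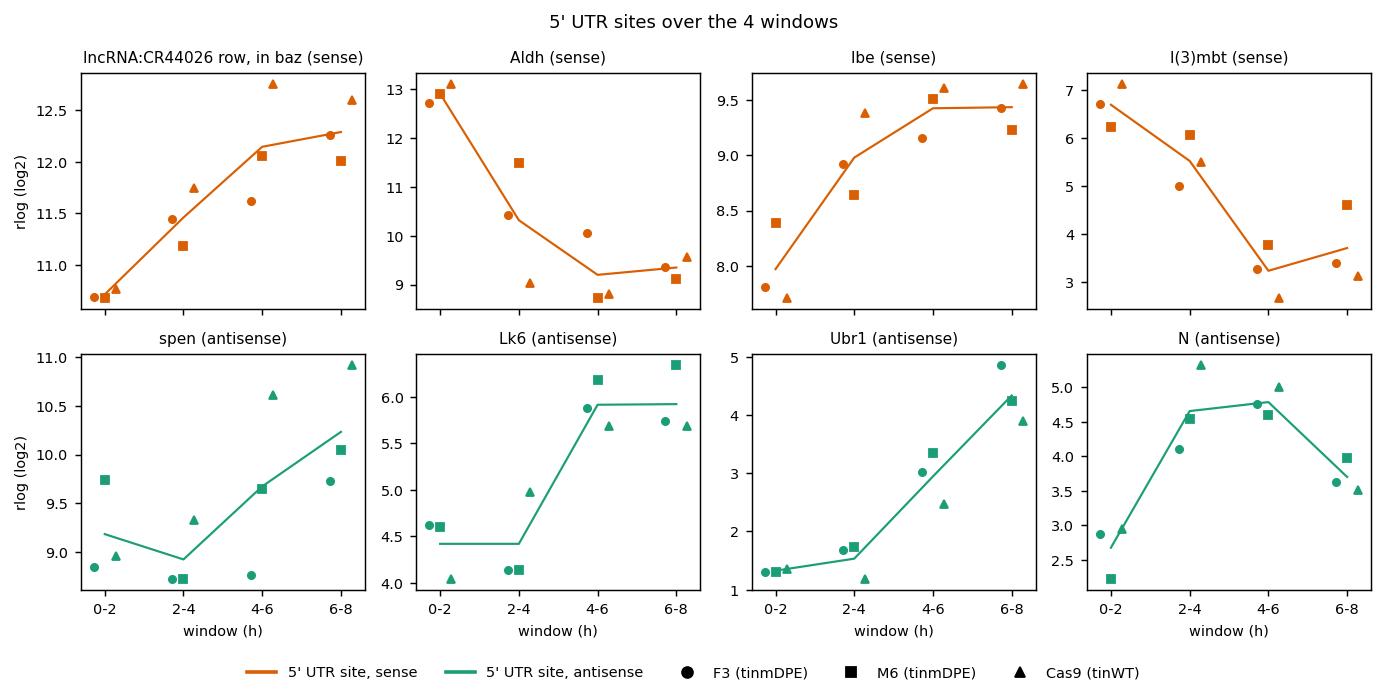
Level (vertical axis, rlog, log2, a separate range per panel) of 8 5' UTR sites over the 4 windows (horizontal axis, h), 4 sense (top) and 4 antisense (bottom); symbols are libraries and lines join the means of the 3 libraries. The baz and lbe sites are higher and the Aldh and l(3)mbt sites lower at 6-8 h than at 0-2 h in every strain, and N is highest in the middle windows.

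Among the sites called in all 12 libraries, PhKgamma, the catalytic subunit of phosphorylase kinase, changed most from 0-2 h to 6-8 h. Its site averaged 5.22 ± 0.35 at 0-2 h, then 6.11 ± 0.38 at 2-4 h, then 6.66 ± 0.10 at 4-6 h, then 7.41 ± 0.23 at 6-8 h (SD, n = 3; change 2.19 ± 0.28, SE, adjusted p = 6.09e-05), and its promoter row averaged 6.91 ± 0.22 and 7.40 ± 0.18 in the first and last windows. CG12581, antisense, rose by 1.40 ± 0.31 (adjusted p = 0.00412). The sites of Atf3, a stress-responsive bZIP factor, of ref(2)P, the fly counterpart of the autophagy adaptor p62, and of CG14621 did not pass the test between 6-8 h and 0-2 h (adjusted p = 0.128, 0.646 and 0.248). Atf3 varied most within a window, with 7.59, 9.00 and 6.10 in F3, M6 and Cas9 at 0-2 h.

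To ask whether a site changed otherwise than the promoter row of its gene, the difference between both was fitted. It changed over the windows for 312 of 802 pairs (38.9%), against 35.8% of all rows with a promoter-TSS row. Between 6-8 h and 0-2 h, 309 pairs were called (34.2% of all such rows were), of which 117 differences rose (13.2% of all such rows did) and 192 fell (21%). Between 2-4 h and 0-2 h, 56 were called (6.66% of all such rows were), 40 higher (4.62%) and 16 lower (2.05%). The site alone was called in 34 of the 117 rises and 18 of the 192 falls, the promoter row alone in 54 and 149, and both in 16 and 15. The promoter row passed the test and the site did not in most of the falls, but not in most of the rises. The paired promoter rows numbered 604, of which 315 were called on their own, 234 higher and 81 lower at 6-8 h. Without F3 80 differences were called between these windows, and without M6 194.

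In 4 of the 5 largest rises of the difference, the promoter row passed the test and the site did not. In the pair deposited under Irk1, whose site lies in CG46310, the site averaged 1.71 ± 0.75 at 0-2 h and 2.59 ± 0.22 at 6-8 h, and the promoter row 5.95 ± 0.48 and 2.03 ± 0.62 (SD, n = 3). That promoter row was paired by the deposited name Irk1, so the site was not compared with a promoter row of CG46310. The site did not pass the test (adjusted p = 0.145), the promoter row changed by -3.91, and the difference rose by 4.79 ± 0.45 (SE; adjusted p = 5.61e-05). Gapdh2, a glycolytic enzyme gene, stai, the stathmin gene, and bru1, a translational repressor of the oocyte, had sites near the lowest values, at -0.69 ± 0.21, 0.76 ± 0.71 and -1.19 ± 0.01 at 6-8 h, beside promoter rows that changed by -4.47, -3.78 and -4.62. For stai the nearest promoter row in place of the strongest ended the call, at a change of 1.17. At CG7997 the site rose by 1.50 ± 0.44 and the promoter row changed by -2.82 ± 0.37 (SE; adjusted p = 0.0258 and 7.99e-05).

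The 5 largest falls of the difference were at hng3, l(3)mbt, CG9005 (atos in RefSeq), brwl and zyd, and in each the site itself fell. The hng3 site (chr3L:739070-739220, minus strand) stood at 7.12, 6.73 and 6.38 in F3, M6 and Cas9 at 0-2 h, then 6.08, 6.28 and 5.10 at 2-4 h, then 3.93, 4.89 and 3.57 at 4-6 h, then 4.75, 4.70 and 4.17 at 6-8 h. Its promoter row, 1118 bp away on the same strand, stood at 1.86, 1.85 and 2.65 in F3, M6 and Cas9 at 0-2 h, then 2.49, 3.44 and 2.35 at 2-4 h, then 3.59, 3.86 and 4.44 at 4-6 h, then 4.58, 4.11 and 5.48 at 6-8 h. The site was higher in every library of the first 2 windows, and both overlapped in the last 2. The difference changed by -4.81 ± 0.42 (SE; adjusted p = 5.3e-05).

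The l(3)mbt gene, which encodes a chromatin protein with MBT repeats and acts as a brain tumour suppressor, crossed over. Its site (chr3R:27272031-27272190, minus strand) stood at 6.72, 6.24 and 7.14 in F3, M6 and Cas9 at 0-2 h, against 5.72, 5.58 and 5.77 at the promoter row, and at 3.40, 4.61 and 3.14 at 6-8 h, against 7.41, 7.08 and 7.13. The site was above in all 3 strains at 0-2 h and below in all 3 at 6-8 h, and the difference changed by -4.50 ± 0.47 (SE; adjusted p = 8.07e-05). The atos, brwl and zyd differences changed by -4.44 ± 0.60, -4.39 ± 0.88 and -3.74 ± 0.57 (adjusted p = 0.000263, 0.00243 and 0.000512). With the nearest promoter row instead, none of these 3 passed the test, with changes of -1.40 for atos, -0.24 for brwl and 1.03 for zyd, a turn of sign; hng3 changed by -1.18 there and did not pass either, and l(3)mbt by -2.72, which passed.

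A pair was counted as crossing when the site lay above its promoter row in all 3 strains in one end window and below in all 3 in the other. Of 802 pairs, 3 went above at 0-2 h and below at 6-8 h (0.374%, against 0.458% of all rows with a promoter-TSS row), namely l(3)mbt, CG31875 and ebd2. Another 3 went the other way (0.374%, against 0.553%), namely Pfrx, osa and orb. All 6 were sense pairs, and these genes were named because they are few. Pfrx, the enzyme that sets fructose 2,6-bisphosphate, stood at 6.72, 7.11 and 6.89 in F3, M6 and Cas9 at its site against 7.52, 7.47 and 7.26 at its promoter row at 0-2 h, and at 7.78, 7.66 and 7.50 against 4.95, 4.06 and 4.39 at 6-8 h. The promoter row carried the change, at -2.95 ± 0.35 (SE; adjusted p = 3.53e-05), and the site's change did not pass the test (adjusted p = 0.056).

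**Figure D5:**
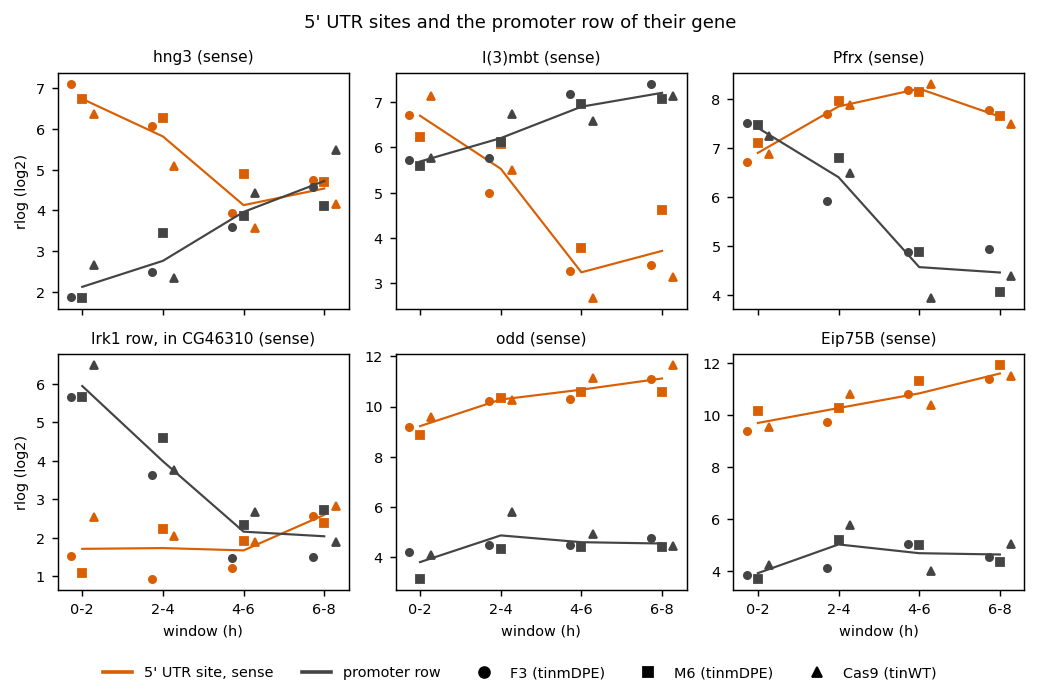
Level (vertical axis, rlog, log2, a separate range per panel) of 6 sense 5' UTR sites and of the strongest promoter-TSS row with the same deposited gene name over the 4 windows (horizontal axis, h). Symbols are libraries and lines join the means of the 3 libraries. The site of the Irk1 row lies in CG46310. At hng3 and l(3)mbt the site is lower and the promoter row higher at 6-8 h than at 0-2 h, at Pfrx and the Irk1 row the promoter row is lower at 6-8 h, and at odd and Eip75B the site exceeds the promoter row throughout.

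Gene lists chosen with earlier results of these data known were read for their members. In segmentation, 4 of 26 measured genes had a 5' UTR site, with 5 sites of which 2 changed over the windows, at odd and nkd; over all rows the F test called 19.9%, which is the share to read the site counts of each list against. In the Hox and NK homeobox list, 6 of 18 genes had 8 sites, of which 1 changed, at lbe. The differences of this list fell in 6 of 7 pairs between 6-8 h and 0-2 h, against 21% of all such rows, and in all 6 no change of the site passed the test: at Scr the sense site averaged 0.61 ± 0.26 at 0-2 h and 0.58 ± 0.27 at 6-8 h, and its promoter row 3.67 ± 0.89 and 5.62 ± 0.29. In every list, sites of 1 gene are set against the same promoter row. Pair counts are therefore not counts of separate genes, and such pairs are not independent. In mesoderm and heart, 3 of 24 genes (Mef2, htl and zfh1) had 4 sites, of which 1 changed: the antisense site of htl, the Heartless FGF receptor gene, rose by 1.54 ± 0.42 (adjusted p = 0.0183). In neural and proneural genes, 3 of 18 had 3 sites, and the sense site of elav, a neuronal RNA-binding protein gene, rose by 1.09 ± 0.36 between 6-8 h and 0-2 h (adjusted p = 0.0471). That rise was 0.68 without F3 (adjusted p = 0.422), and 6 of 9 alternatives lost the call, among them the fit without the strain block (0.0517). No site of this list changed by the F test.

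The dorsoventral and signalling list held the most, with 12 of 32 genes and 18 sites, 14 of them antisense. Of these, 3 sites changed over the windows, 3 rose and none fell between 6-8 h and 0-2 h (against 9.88% and 7.5% of all rows). The 3 that rose were a sense site of aop, an antisense site of pnt and a sense site of vn, picked out after their values were seen. The difference fell in 9 of 18 pairs, which come from 12 genes, and rose in none, against 21% and 13.2% of all such rows. Another vn site, the antisense one at position 5844465, in the gene that encodes a neuregulin-like EGF receptor ligand, averaged 2.55 ± 0.41 at 0-2 h, then 4.11 ± 0.66 at 2-4 h, then 2.88 ± 0.40 at 4-6 h, then 3.01 ± 0.24 at 6-8 h (SD, n = 3) and rose in the first step (adjusted p = 0.0256), while its change between 6-8 h and 0-2 h, 0.46 ± 0.38, did not pass the test (SE; adjusted p = 0.486). Of maternal and germ plasm genes, 4 of 21 had 6 sites, and the difference rose in 3 of 6 pairs, against 13.2% of all such rows. Both sites of orb, the CPEB translational regulator of the germ line, were among them: its antisense site rose by 1.48 ± 0.36 and its promoter row changed by -1.67 ± 0.43 (SE; adjusted p = 0.00805 and 0.0123). Of cytoskeleton and adhesion genes, 4 of 19 had 4 sites, of which 2 rose, at baz and at shg, the E-cadherin gene, whose sense site changed by 1.61 ± 0.36 beside a promoter row that changed by 1.34 ± 0.25. Of 178 translation and proteasome genes 3 had a site, and none of the 4 sites changed by the F test; the difference rose in 2 of 3 pairs and fell in none. Both were antisense sites of eIF4E1, the gene of the cap-binding protein, of which the stronger averaged 2.97 ± 0.39 at 0-2 h and 2.04 ± 0.16 at 6-8 h, beside 10.06 ± 0.29 and 6.88 ± 0.29 at the promoter row, a difference that rose by 2.26 ± 0.56 (SE; adjusted p = 0.00754).

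Between genotypes, 2 of 862 members were called, both lower in tinmDPE, against 0.323% of all rows called, 0.175% higher and 0.148% lower. The site deposited under SkpF, in exon 2 of CG43795 on chromosome arm 2R, stood at 3.40 and 2.51 in the tinmDPE libraries against 7.40 in tinWT at 0-2 h, then 1.97 and 1.47 in the tinmDPE libraries against 3.45 in tinWT at 2-4 h, then 1.38 and 1.29 in the tinmDPE libraries against 2.31 in tinWT at 4-6 h, then 1.93 and 1.89 in the tinmDPE libraries against 5.04 in tinWT at 6-8 h. Both tinmDPE strains were lower in each window, and the difference over the windows was -2.57 ± 0.41 (SE; adjusted p = 0.0079). The CG8195 site, also on 2R, stood at 0.91 and 0.33 in the tinmDPE libraries against 2.44 in tinWT at 0-2 h, then 0.88 and 0.16 in the tinmDPE libraries against 1.35 in tinWT at 2-4 h, then 0.13 and 0.09 in the tinmDPE libraries against 3.13 in tinWT at 4-6 h, then 0.13 and 0.02 in the tinmDPE libraries against 2.66 in tinWT at 6-8 h. Again tinWT was highest in each window, and the difference was -2.07 ± 0.32 (SE; adjusted p = 0.00682). Both sites were rarely called by the authors, the SkpF site in 3 of 12 libraries and the CG8195 site in 2. CG8195 was also the only pair called for the difference to the promoter row (0.264% of all such rows were, 0.077% higher and 0.187% lower), at -2.19 ± 0.32 (SE; adjusted p = 0.00879).

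With 1 tinWT strain, genotype and strain cannot be told apart. The genotype fit held no strain term, so the windows of a strain counted as replicates. Its SE and p-values therefore do not measure the spread between strains of a genotype. Both calls were lost when either tinmDPE strain was left out, and when the 0-2, 4-6 or 6-8 h window was; without the tinWT 2-4 h library the SkpF site did not pass (adjusted p = 0.054). As many as 11 sites were called with strain as a correlated block. The call for the CG8195 difference was lost without either strain, 21 differences were called without the tinWT 2-4 h library, and 25 with strain as a correlated block. Between F3 and M6, which share the genotype, limma called 0 members with 27 at an unadjusted p under 0.05, against 0.00218% of all rows called. The strong sites of odd, lbe, Eip75B and the baz exon did not pass the genotype test, with tinmDPE minus tinWT differences of -0.50 ± 0.18, -0.20 ± 0.20, 0.06 ± 0.23 and -0.47 ± 0.16 (SE; adjusted p = 0.321, 0.797, 0.936 and 0.295).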

How the data were processed

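csRNA-seq libraries of 12 strain and window combinations were analysed. Per the submitters' processing notes, reads were handled with STAR 2.7.10a, HOMER and edgeR on dm6; their order, the site caller's settings and thresholds are not given in the sources used here. Per the file headers, the authors merged start sites of all libraries by strand with HOMER's mergePeaks and deposited, for each row, rlog values of tag counts on a log2 scale from annotatePeaks.pl, counted at tag 5' ends on the row's strand; rlog shrinks low values. The merged list also says in which libraries the authors called each site, and holds a deposited score per row that was not tested. Library totals are the counts of tags in the file headers (2632187 to 10553406); per-row counts were not used here, so no counting interval is given. No column of per-library values was left out (0).

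Members were the rows annotated as 5' UTR; 727 of the 862 passed the 25th percentile of mean level, a filter used only as an alternative. Each was paired with the promoter-TSS row of the same gene name that had the highest mean, on either strand. Orientation, leader positions and letters came from the RefSeq Release 6 annotation and genome, whose chromosome lengths hold every deposited end; the called position is the one most libraries share. Members and lists were chosen with earlier results of these data known.

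limma 3.58.1 in R 4.3.3 (trended variance prior, Benjamini-Hochberg adjustment, threshold 0.05) was fitted on all 45839 rows, and on the difference of site minus promoter row for the 27282 rows that have one. Window fits held strain as a replicate block, since a strain is 1 line followed through the windows; libraries of a strain deviated together only weakly (mean correlation 0.0643 in F3, 0.0669 in M6 and 0.154 in Cas9, against -0.0475 between strains). Genotype fits held window and genotype, with the windows of a strain as replicates. Python 3.11.15 with pandas 2.3.3 and matplotlib 3.10.9 did the rest. On simulated data with 200 changed rows (shift 2), 177 sites were recovered for 6-8 h against 0-2 h and 197 for genotype. For differences, 88 and 168 were recovered. False calls numbered 10 and 15 for sites and 7 and 9 for differences. The changed sites were drawn from rows with a mean rlog above 2, and the noise held no strain effect. Recovery at weaker sites, or with strains that differ, was not tested, and the members' median of mean rlog was 1.42.

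Named members were the 4 largest rises and falls of each window step, called and of one sign in all strains; the 5 largest of the 6-8 h against 0-2 h difference each way; those called between genotypes; the 10 highest called in all 12 libraries; the 5 most above their promoter row, the 5 highest without one; and those leading each gene list. The comparison of 6-8 h with 0-2 h at the sites was added after seeing the data. Stage markers were BicC, exu, nos, pgc, osk; slam, nullo, bnk, Sry-alpha; twi, sna, Mef2, tin; elav, repo, Mhc, up. Alternatives were no variance trend, the filter, median centring, quantile normalization, no replicate block, leaving out a strain, window or library, other promoter rows and other motif and recurrence rules.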

Additional observations from a re-analysis of the deposited data

Results flagged for a closer look

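At 3 named sites the strains moved in opposite directions between 0-2 h and 6-8 h, both tinmDPE strains downwards and tinWT upwards; in each case the difference between genotypes in this change was not tested. At the CG8195 site the level at 6-8 h minus that at 0-2 h was -0.78 in F3 and -0.31 in M6, against 0.22 in Cas9. At the CG1299 site it was -0.51 in F3 and -2.22 in M6, against 0.74 in Cas9. At the antisense site of Mef2, the muscle transcription factor gene, it was -0.45 in F3 and -0.71 in M6, against 0.94 in Cas9. Each value rests on 1 library per strain and window.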

How the results depend on the processing

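Leaving out 1 strain moved every window count. The F test over the windows called 0 to 40 sites, the steps from 0-2 h to 2-4 h, 2-4 h to 4-6 h and 4-6 h to 6-8 h each called 0 to 0, and 6-8 h against 0-2 h called 0 to 100. Of the differences to the promoter row, 24 to 237 were called over the windows and 80 to 254 between 6-8 h and 0-2 h. Without the tinWT 2-4 h library 20 sites were called in the first step, 23 in the second and 1 in the last, and the last step held 3 with each library centred on its median. Without the replicate block the last step held 3 sites, and the F test 167, the first step 58, the second 13 (1 rise in place of 4), 6-8 h against 0-2 h 165 and the difference 299; each but the first of these was within 1.5 times its blocked count. Between genotypes, leaving out 1 tinmDPE strain called 0 to 0 sites and 0 to 0 differences. Without the 0-2, 4-6 or 6-8 h window 0 sites were called and without the 2-4 h window 1, and with strain as a correlated block 11. For the genotype difference to the promoter row, 0 were called without the 4-6 or 6-8 h window, 13 without the 2-4 h window, 21 without the tinWT 2-4 h library (added after seeing the data), 25 with strain as a correlated block and 2 with the nearest promoter row. The share of sites above their promoter row was 2.12% by 1 or more. The zyd difference was 1.03 with the nearest promoter row (adjusted p = 0.175, limma); the cause of these shifts was not tested, apart from the smaller number of samples in fits that leave some out. Of 48 called values of named sites, 47 kept their sign in every alternative and 24 their call in every alternative that left out no strain or replicate; 5 kept it in all. Depth was lowest in the 0-2 h libraries, and with 1 library per strain and window no strain has its own error.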
